A study of Mus musculus with 6 samples.

Results

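The interferon response genes were 35 mouse genes that interferons induce, chosen by name, and they were measured in 6 colon tumors, 3 from *Chrm3*-/- mice and 3 from wild-type (WT) mice. Every probe whose annotated symbol equaled a member was taken, which gave 72 probes for 34 of the 35 genes, out of 19057 genes with a named probe; no probe was named for *Ifi44*. The members were divided by general knowledge into 17 that respond mainly to type I interferons, 8 that respond mainly to type II interferon and 10 that respond to both types. The division is not sharp, since many of these genes answer to either cytokine to some degree.

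Type I interferons are secreted by many cells that sense viral or displaced nucleic acids, and they signal through a receptor of the subunits IFNAR1 and IFNAR2 and the kinases JAK1 and TYK2. STAT2 and IRF9 carry the signal to the interferon-stimulated response element (ISRE) of antiviral genes. Type II interferon (interferon gamma) comes mainly from T cells and natural killer (NK) cells, signals through JAK1 and JAK2 to the gamma-activated sequence (GAS), and induces guanylate-binding proteins, immunity-related GTPases and antigen presentation genes. In the intestine, these programs are known from epithelial cells as well as from immune cells.

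*Chrm3* encodes the M3 muscarinic acetylcholine receptor, and the study asked how gene expression differed between colon tumors of mice that lacked it and those of WT mice. The 3 *Chrm3*-/- and the 3 WT tumors came from different mice of the mixed strain 129S6/SvEvTac X CF1, labelled as 7 months old, and per the methods all were male and all had received azoxymethane (AOM), a carcinogen that acts on the colon. RNA of tumor tissue was hybridized to Illumina MouseWG-6 v2.2 BeadChips, with 1 array per mouse, and the values are normalized intensities on a linear scale. No vehicle-treated or normal tissue was compared here.

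The deletion was carried by the whole animal, so no cell type of the tumor was singled out. The arrays labelled *Chrm3*-/- had *Chrm3* intensities of 25.1, 32.1 and 21.9, and those labelled WT had 9.06, 1.80 and 1.93, so the targeted gene was not lower in the arrays labelled as its knockout (log2 fold change 0.49, SE 0.10, limma adjusted p = 0.365). The sources used here do not place this probe inside or outside the deleted part. It therefore does not check the labels, and the group names below follow the labels. *Gapdh*, a glycolytic enzyme, differed by a log2 value of -0.11 (SE 0.12). Of the colon epithelial markers, the keratin *Krt8* was bright on every array, with 18551, 14060.1 and 18449 in *Chrm3*-/- and 13368, 17930.3 and 17257 in WT tumors, whereas *Epcam* was dim throughout, with 1.13, 1.06 and 2.03 in *Chrm3*-/- and 8.67, 11.1 and 12.1 in WT tumors.

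*Chrm3*-/- replicate 1 stood apart from the other tumors. Arrays correlated with each other at 0.916 to 0.973 among *Chrm3*-/- tumors and at 0.982 to 0.986 among WT tumors (Pearson's r across probes of log2 intensities). The Wnt target *Axin2*, which marks tumor epithelium in this model, had an intensity of 262 in *Chrm3*-/- replicate 1, against 3912 and 3101 in the other *Chrm3*-/- tumors and 2718, 2321 and 2396 in WT tumors. Fold changes of members and medians of gene lists are therefore given also without *Chrm3*-/- replicate 1, and for members whose fold change is not printed the plot of fold changes shows both.

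Promoters of members are shown first, since the 2 pathways act through response elements. RefSeq promoter windows (build GRCm38.p6, the 250 bases before the gene's start) were found for 30 of the 35 members. An ISRE core, searched on both strands as GAAA, any 2 bases and GAAA again, was present in 12 of the 30 members (40.0%), against 3.46% of 27018 genes. By class, it was found in 6 of 16 type I members, 5 of 7 type II members and 1 of 7 members of both types. A GAS core, searched as TTCNNNGAA, which reads the same pattern on both strands, was present in 7 of the 30 members (23.3%), against 8.13% of genes, and these were 4 of 16 type I members, 3 of 7 type II members and 0 of 7 members of both types. Each core was found in type I and in type II members, so a match did not separate these classes. A match describes the letters and not a bound site, and no match says only that these letters were not in the window.

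Promoters with a match are given for the 6 members with the smallest p, and also for *Isg15* and *Irf8*, which were chosen after their values were seen because they carry the highest numbers of ISRE and GAS matches. Capitals mark the matches, and each sequence runs 5′ to 3′ on the gene's strand, ending at the base before the start.
*Isg15* (chr4:156200819-156201068, minus strand): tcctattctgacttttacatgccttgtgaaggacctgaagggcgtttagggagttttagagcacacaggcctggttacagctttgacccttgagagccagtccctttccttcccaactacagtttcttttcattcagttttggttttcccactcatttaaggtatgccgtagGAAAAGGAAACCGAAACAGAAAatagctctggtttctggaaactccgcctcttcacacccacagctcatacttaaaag
*Ifit3* (chr19:34583279-34583528, plus strand): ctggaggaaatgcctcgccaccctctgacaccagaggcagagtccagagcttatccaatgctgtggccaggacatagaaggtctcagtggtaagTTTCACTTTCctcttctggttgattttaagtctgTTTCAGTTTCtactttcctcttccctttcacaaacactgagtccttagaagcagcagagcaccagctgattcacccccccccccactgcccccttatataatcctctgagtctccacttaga
*Oas1a* (chr5:120907526-120907775, minus strand): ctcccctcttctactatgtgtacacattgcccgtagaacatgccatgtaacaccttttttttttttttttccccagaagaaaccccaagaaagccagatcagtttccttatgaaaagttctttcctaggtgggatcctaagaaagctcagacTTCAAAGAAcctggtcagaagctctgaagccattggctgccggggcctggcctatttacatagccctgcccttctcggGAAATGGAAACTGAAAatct
*Bst2* (chr8:71537473-71537722, minus strand): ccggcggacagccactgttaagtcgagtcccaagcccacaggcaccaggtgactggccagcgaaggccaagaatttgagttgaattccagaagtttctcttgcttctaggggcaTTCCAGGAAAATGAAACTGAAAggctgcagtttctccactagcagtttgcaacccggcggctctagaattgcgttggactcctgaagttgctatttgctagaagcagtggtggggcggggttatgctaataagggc
*Stat2* (chr10:128270248-128270497, plus strand): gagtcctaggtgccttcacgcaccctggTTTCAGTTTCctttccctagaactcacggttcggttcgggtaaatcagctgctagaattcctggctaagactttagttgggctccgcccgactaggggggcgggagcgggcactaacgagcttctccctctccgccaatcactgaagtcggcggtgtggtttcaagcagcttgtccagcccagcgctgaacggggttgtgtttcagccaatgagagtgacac
*Ifit2* (chr19:34550444-34550693, plus strand): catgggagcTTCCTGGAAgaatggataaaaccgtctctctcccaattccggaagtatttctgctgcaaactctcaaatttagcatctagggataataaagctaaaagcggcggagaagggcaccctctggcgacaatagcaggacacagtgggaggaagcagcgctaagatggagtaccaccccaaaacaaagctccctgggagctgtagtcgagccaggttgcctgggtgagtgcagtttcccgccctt
*Eif2ak2* (chr17:78882573-78882822, minus strand): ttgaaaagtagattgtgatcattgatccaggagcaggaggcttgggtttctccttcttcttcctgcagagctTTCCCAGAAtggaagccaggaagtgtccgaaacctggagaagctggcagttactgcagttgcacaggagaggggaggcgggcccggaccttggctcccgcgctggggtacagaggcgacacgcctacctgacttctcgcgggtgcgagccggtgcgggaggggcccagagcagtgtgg
*Irf8* (chr8:120736108-120736357, plus strand): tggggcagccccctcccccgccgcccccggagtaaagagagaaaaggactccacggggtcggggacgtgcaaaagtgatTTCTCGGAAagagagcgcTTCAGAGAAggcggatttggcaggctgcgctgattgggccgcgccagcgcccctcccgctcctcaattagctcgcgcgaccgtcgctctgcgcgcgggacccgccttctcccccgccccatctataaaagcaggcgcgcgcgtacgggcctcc
In *Isg15*, 3 ISRE matches overlapped each other, beginning 78, 72 and 66 bases before the start, which makes a single run of capitals. *Oas1a* (20 and 14 bases) and *Bst2* (130 and 124 bases) each held 2 overlapping ISRE matches, and in *Bst2* a GAS match that began 136 bases before the start overlapped the first of them. *Ifit3* held 2 separate ISRE matches, at 156 and 122 bases. *Stat2* had its match at 222 bases. *Eif2ak2* and *Ifit2* had only a GAS match, and *Irf8* held 2, at 171 and 153 bases.

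No interferon response gene passed the test between the genotypes. Of the 31 members with a tested probe (14 type I, 7 type II and 10 of both types), 0 passed an adjusted p of 0.05 in limma, against 0.124% of all 22641 probes tested (0.0486% higher and 0.0751% lower in *Chrm3*-/- tumors), and the smallest adjusted p among the members was 0.991. At an unadjusted p under 0.05, 0 of 31 members passed, against 4.82% of all probes, and the methods' t-test also called 0. In 0 members were the 3 *Chrm3*-/- tumors all above or all below the 3 WT tumors; among all probes, 5.2% lay above and 5.5% below without overlap. The median log2 fold change was -0.11 over the members and 0.01 over all probes tested, with 13 members above 0 and 18 below, against 52.4% of all probes above 0. Over all 59 tested probes of the members, dim ones included, it was -0.02, with 29 above 0 and 30 below. Here and below, a member is represented by its brightest tested probe, and fold changes are those of log2(intensity + 50), a scale that understates the change of dim probes. The 95% interval of a log2 fold change had a median width of 2.32, from 0.43 for *Parp9* to 4.45 for *Igtp*, whose interval ran from -2.62 to 1.83, so many members could have differed by a large amount in either direction without passing.

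The members were uneven within each genotype. *Chrm3*-/- replicate 1 was above both other *Chrm3*-/- tumors in 27 of the 31 members (87.1%), against 33.9% of all probes. It was the highest of the 6 arrays in 17 members, against 5538 of all 22641 probes. WT replicate 1 was above both other WT tumors in 20 members (64.5%), against 33.5% of all probes. Both held together in 17 members (54.8%), against 10.1% of all probes. For the members, the separate shares alone would give about this many, without any link between the first replicates. *Chrm3*-/- replicate 2 was the lowest of the 6 arrays in 19 members, against 4731 of all 22641 probes. *Chrm3*-/- replicates 2 and 3 were both below all WT tumors in 11 members (35.5%), against 11.3% of all probes, while *Chrm3*-/- replicate 1 was above all WT tumors in 17 members (54.8%), against 31.2%. These shares describe 6 tumors, and the members are not independent of each other.

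**Figure D1:**
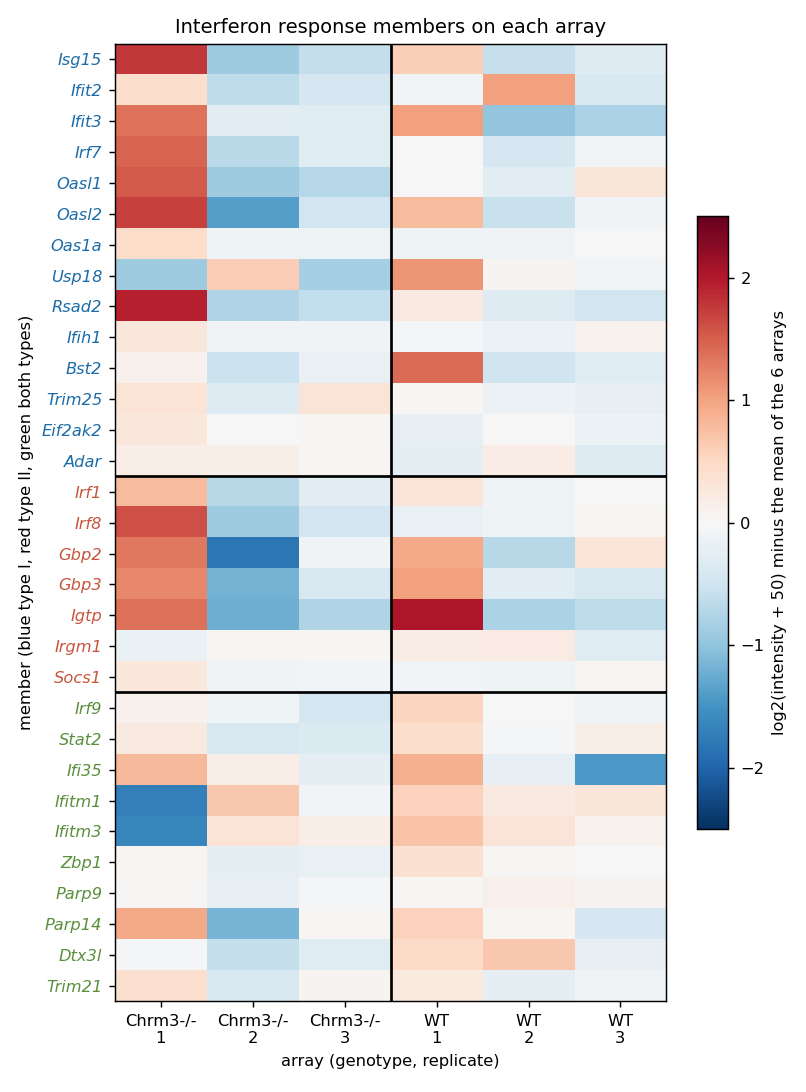
Each of the 31 tested members (rows, by class) on each array (columns, *Chrm3*-/- tumors left and WT tumors right), as log2(intensity + 50) minus the mean of the 6 arrays. *Chrm3*-/- replicate 1 was the highest array in 17 members and *Chrm3*-/- replicate 2 the lowest in 19, while *Usp18*, *Ifitm1* and *Ifitm3* were lowest in *Chrm3*-/- replicate 1.

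Among the type I members, *Isg15*, a ubiquitin-like protein that is attached to other proteins and also secreted, had intensities of 685, 67.5 and 93.7 in *Chrm3*-/- tumors, against 279, 94.7 and 124 in WT tumors. The first replicate was the highest of each genotype and the groups overlapped (log2 fold change 0.19, SE 0.71). Without *Chrm3*-/- replicate 1, the log2 fold change was -0.64 (SE 0.37, adjusted p = 0.731). *Rsad2* (viperin), an enzyme that makes a chain-terminating nucleotide, had 516, 37.0 and 45.8 in *Chrm3*-/- and 121, 67.3 and 57.1 in WT tumors, and *Chrm3*-/- replicate 1 was again the highest array by far while the other 2 *Chrm3*-/- tumors lay below all WT tumors. Its log2 fold change was 0.38 (SE 0.71) with all arrays and -0.50 (SE 0.24) without that array. *Irf7*, the transcription factor that amplifies type I interferon production, had 274, 24.2 and 45.3 in *Chrm3*-/- tumors, against 68.5, 37.9 and 61.9 in WT tumors. In *Irf7* too, only *Chrm3*-/- replicate 1 exceeded the highest WT tumor, and the log2 fold change was 0.33 (SE 0.53) with it and -0.32 (SE 0.21) without it.

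The 2′-5′-oligoadenylate synthetase family activates the antiviral ribonuclease RNase L or, in its synthetase-like members, acts by other routes. *Oasl1*, which in mice restrains translation of *Irf7*, had 829.6, 114 and 135 in *Chrm3*-/- and 252, 203 and 325 in WT tumors. Replicates 2 and 3 of *Chrm3*-/- lay below all WT tumors and replicate 1 above them, so the log2 fold change was -0.03 (SE 0.63) with all arrays and -0.81 (SE 0.22) without replicate 1, the smallest p of any member in that setting but with an adjusted p of 0.489. *Oasl2* had 1452, 128 and 279.7 in *Chrm3*-/- and 754, 265 and 383 in WT tumors. *Oas1a* was near the bottom of the scale, with 27.2, 2.07 and 1.94 in *Chrm3*-/- and 1.83, 3.10 and 5.99 in WT tumors, and only *Chrm3*-/- replicate 1 was clearly brighter. A dimmer probe of *Oasl1* repeated the pattern, with 403, 48.3 and 62.6 in *Chrm3*-/- and 121, 93.5 and 130.2 in WT tumors. The dimmest tested *Oasl1* probe did so only in part, with 85.6, 18.4 and 1.77 in *Chrm3*-/- and 29.6, 10.3 and 33.3 in WT tumors. On it, *Chrm3*-/- replicate 2 lay above the lowest WT tumor, and the log2 fold change was -0.31 (SE 0.19) without *Chrm3*-/- replicate 1.

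The IFIT proteins bind foreign RNA and block its translation. *Ifit3* had 368, 86.1 and 82.2 in *Chrm3*-/- tumors, against 282, 32.3 and 44.4 in WT tumors, with both first replicates high and the log2 fold change at 0.52 (SE 0.66), or -0.03 (SE 0.59) without *Chrm3*-/- replicate 1. *Ifit2* had 338, 135 and 164 in *Chrm3*-/- and 223, 533 and 169.6 in WT tumors. Its highest array was WT replicate 2, which was not high for *Ifit3*, and its second probe showed the same order of the highest arrays (289.9, 105 and 119.9 in *Chrm3*-/- and 179, 495 and 149.8 in WT tumors). *Ifit1* was under 2 on all 6 arrays, a range that holds the lowest ranks of each array and is not treated as measured signal here. Its level can therefore not be compared.

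*Bst2* (tetherin), a membrane protein that holds budding viruses at the cell surface and is also a marker of plasmacytoid dendritic cells, had 155, 81.2 and 118 in *Chrm3*-/- tumors, against 463, 85.6 and 105 in WT tumors. Only WT replicate 1 stood out. *Usp18*, the protease that removes ISG15 from proteins and dampens signaling at IFNAR2, did not follow *Isg15*: it had 418, 1281 and 439 in *Chrm3*-/- and 1804, 854 and 781 in WT tumors, lowest in *Chrm3*-/- replicate 1 (log2 fold change -0.73, SE 0.49, and -0.47, SE 0.51, without that array). A second *Usp18* probe gave 81.6, 314 and 96.6 in *Chrm3*-/- and 463, 151 and 146 in WT tumors, the same order of the high and low arrays.

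Several type I members hardly varied. The RNA-activated kinase *Eif2ak2* (PKR) had 1095, 894 and 934 in *Chrm3*-/- and 774, 905 and 809 in WT tumors, with a log2 fold change of 0.22 (95% interval -0.15 to 0.59), and of 0.14 without *Chrm3*-/- replicate 1. *Adar*, which deaminates adenosines in double-stranded RNA, had 219, 216 and 199 in *Chrm3*-/- and 156, 224 and 141 in WT tumors, and *Trim25*, a ubiquitin ligase that activates the RNA sensor RIG-I, had 962, 586 and 944 in *Chrm3*-/- and 766, 670.1 and 639 in WT tumors. These 3 genes also have basal expression that does not need interferon. *Ifih1* (MDA5), a sensor of double-stranded RNA, was dim at 19.9, 3.74 and 3.78 in *Chrm3*-/- and 5.59, 1.78 and 10.5 in WT tumors. Both probes of *Xaf1* were under 2 on all arrays.

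**Figure D2:**
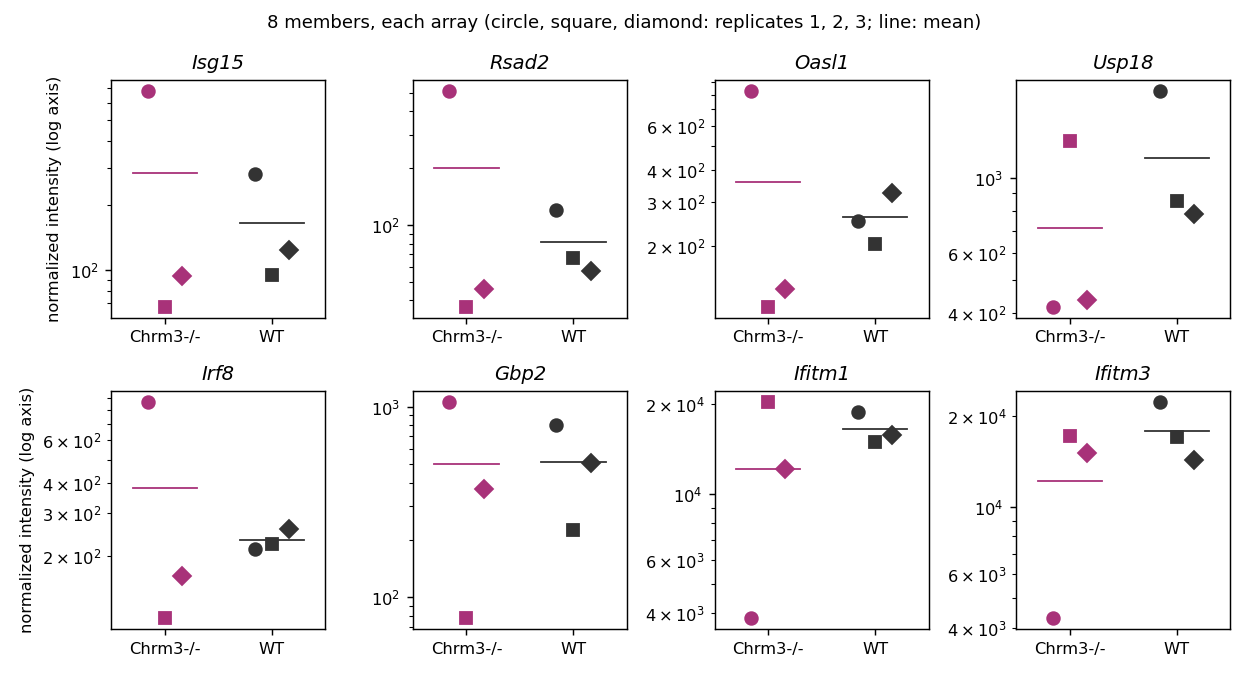
Normalized intensity (log axis) of 8 members on each array, *Chrm3*-/- tumors left and WT tumors right in each panel, with circles, squares and diamonds for replicates 1, 2 and 3 and lines for the means. For *Isg15*, *Rsad2*, *Oasl1* and *Irf8* the circle of *Chrm3*-/- replicate 1 lies above every other array, and for *Ifitm1* and *Ifitm3* it lies below them.

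Of the 7 tested type II members, 5 were highest in *Chrm3*-/- replicate 1, against 5538 of all 22641 probes. Also, 5 were lowest in *Chrm3*-/- replicate 2, against 4731 of all probes. *Irf8*, a transcription factor of myeloid and B cells that interferon gamma induces, had 864, 111 and 166 in *Chrm3*-/- tumors, against 214, 224 and 259 in WT tumors. The WT tumors were close together, *Chrm3*-/- replicate 1 was far above them and the other *Chrm3*-/- tumors were below them, so the log2 fold change was 0.17 (SE 0.61) with all arrays and -0.59 (SE 0.20, adjusted p = 0.616) without replicate 1. *Irf1*, the primary transcription factor of the gamma response, had 4143, 1445 and 1926 in *Chrm3*-/- and 2965, 2153 and 2375 in WT tumors. Its 5 probes had log2 fold changes between -0.13 and 0.22, and *Chrm3*-/- replicate 1 was the highest array in each of the 5. Without that array, the brightest probe had -0.56 (SE 0.20, adjusted p = 0.639). The dimmer probes had -0.27 (SE 0.18), -0.02 (SE 0.12), -0.22 (SE 0.24) and -0.23 (SE 0.27).

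The GTPases of this class attack the vacuoles of intracellular pathogens. *Gbp2*, a guanylate-binding protein, had 1059.7, 77.8 and 372 in *Chrm3*-/- tumors, against 803, 226 and 505 in WT tumors, and *Gbp3* had 669, 88.1 and 188 in *Chrm3*-/- and 588, 209 and 187 in WT tumors. Both were lowest in *Chrm3*-/- replicate 2 and high in both first replicates. *Igtp* (Irgm3), an immunity-related GTPase, had 700.2, 74.0 and 121 in *Chrm3*-/- and 1119, 117 and 135 in WT tumors, and here WT replicate 1 was the highest array. Without *Chrm3*-/- replicate 1, the log2 fold changes were -1.13 (SE 0.63) for *Gbp2*, -0.91 (SE 0.48) for *Gbp3* and -1.18 (SE 0.83) for *Igtp*, none with an adjusted p that passed.

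*Irgm1*, which regulates the other immunity-related GTPases, differed between its probes. The brightest probe was nearly level, with 4657, 5408 and 5303 in *Chrm3*-/- and 5931, 6060.0 and 4245 in WT tumors, whereas another had 596, 125 and 215 in *Chrm3*-/- and 706, 241 and 193 in WT tumors, with the same 2 highest arrays and the same lowest array as *Igtp*. Which transcripts the 2 probes detect was not examined. *Socs1*, the feedback inhibitor of JAK kinases, was dim at 17.6, 2.32 and 3.53 in *Chrm3*-/- and 3.29, 2.03 and 8.18 in WT tumors. The 4 probes of *Iigp1* did not exceed 4.81 on any array and were not tested.

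Among the members of both types, the signaling factors *Stat2* and *Irf9* were highest in WT replicate 1. *Stat2* had 69.0, 27.5 and 30.8 in *Chrm3*-/- tumors, against 88.6, 48.3 and 63.0 in WT tumors (log2 fold change -0.35, SE 0.23), and *Irf9* had 494, 420.3 and 323 in *Chrm3*-/- and 679, 448 and 425 in WT tumors (-0.28, SE 0.24). Without *Chrm3*-/- replicate 1 the log2 fold changes were -0.55 (SE 0.19, adjusted p = 0.634) for *Stat2* and -0.41 (SE 0.24) for *Irf9*. *Dtx3l*, a ubiquitin ligase that works as a partner of PARP9, had 392, 246 and 316 in *Chrm3*-/- and 576, 664 and 341 in WT tumors. It had the smallest p of all members, with a log2 fold change of -0.62 (SE 0.28, limma adjusted p = 0.991), and *Chrm3*-/- replicate 1 still overlapped the lowest WT tumor. Without that array its log2 fold change was -0.76 (SE 0.29, adjusted p = 0.649). A dimmer tested probe of *Dtx3l* was nearly level, with 18.6, 15.6 and 14.9 in *Chrm3*-/- and 16.1, 12.7 and 16.7 in WT tumors (log2 fold change 0.03, SE 0.09). *Parp9* itself was dim, at 10.9, 1.76 and 7.47 in *Chrm3*-/- and 10.4, 14.5 and 12.2 in WT tumors. *Parp14*, a mono-ADP-ribosyltransferase, had 818, 152 and 410.1 in *Chrm3*-/- and 629, 415 and 288 in WT tumors.

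*Zbp1*, a sensor of Z-form nucleic acids that can start necroptosis, had 37.1, 21.7 and 23.7 in *Chrm3*-/- tumors, against 59.5, 36.0 and 33.4 in WT tumors (log2 fold change -0.26, SE 0.16). Another tested probe of *Zbp1* had 58.9, 1.88 and 9.19 in *Chrm3*-/- and 38.2, 8.39 and 6.12 in WT tumors (0.07, SE 0.31). *Trim21*, an intracellular antibody receptor, had 169, 75.0 and 123 in *Chrm3*-/- and 145, 90.9 and 106 in WT tumors. *Ifi35* had 222, 123 and 81.4 in *Chrm3*-/- and 236, 82.6 and 6.74 in WT tumors, with WT replicate 3 far below the other arrays. In these 3 genes the groups overlapped and both first replicates were the highest of their genotype.

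The interferon-induced transmembrane proteins, which keep viruses from fusing with endosomes, ran the other way. *Ifitm3* had 4302, 17169.7 and 15076 in *Chrm3*-/- tumors, against 22214, 16979.9 and 14290.1 in WT tumors, and *Ifitm1* had 3839, 20369 and 12139 in *Chrm3*-/- and 18913, 14889 and 15799.6 in WT tumors. In both, *Chrm3*-/- replicate 1 was the lowest array. With all arrays the log2 fold change was -0.75 (SE 0.51) for *Ifitm3* and -0.74 (SE 0.55) for *Ifitm1*, and without replicate 1 it was -0.12 (SE 0.20) for *Ifitm3* and -0.06 (SE 0.23) for *Ifitm1*. The 5 probes of *Ifitm1* had log2 fold changes of -0.74 to 0.12 with all arrays, and *Chrm3*-/- replicate 1 was the lowest array in each of the 5. Without that array, only the brightest probe stayed near 0. The dimmer probes had 0.38 (SE 0.43), 0.65 (SE 0.40), 0.49 (SE 0.30) and 0.95 (SE 0.54), none with an adjusted p that passed. The Wnt targets, such as *Axin2* above, were low on that same array: their summed intensity was 2072 to 16946 over *Chrm3*-/- tumors, with the lowest in replicate 1, and 11158 to 15608 over WT tumors, and none of the 9 with a probe was under 2 on every array. The part of the Wnt targets in the *Ifitm1* and *Ifitm3* values was not tested.

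The type I and type II members were then set against each other. The median log2 fold change was 0.17 over the 14 type I members, with 9 above 0 and 5 below, and -0.13 over the 7 type II members, with 2 above 0 and 5 below, a difference of 0.30 (type I minus type II). Without *Chrm3*-/- replicate 1, it was -0.40 over the type I members (3 above 0 and 11 below) and -0.59 over the type II members (1 above 0 and 6 below), a difference of 0.20. The sign of the type I median thus depended on that array, whereas the type II median was below 0 both with and without it. It was 0.06 without WT replicate 1 and 0.19 without *Chrm3*-/- replicate 2, so its sign depended on those arrays in turn. With the members of both types counted as type I, the type I median was -0.07 and the difference 0.06. The members of both types had a median of -0.27 with all arrays (2 above 0 and 8 below) and of -0.27 without *Chrm3*-/- replicate 1 (1 above 0 and 9 below). No test of the difference between classes was made, because the members share 6 tumors and are few.

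**Figure D3:**
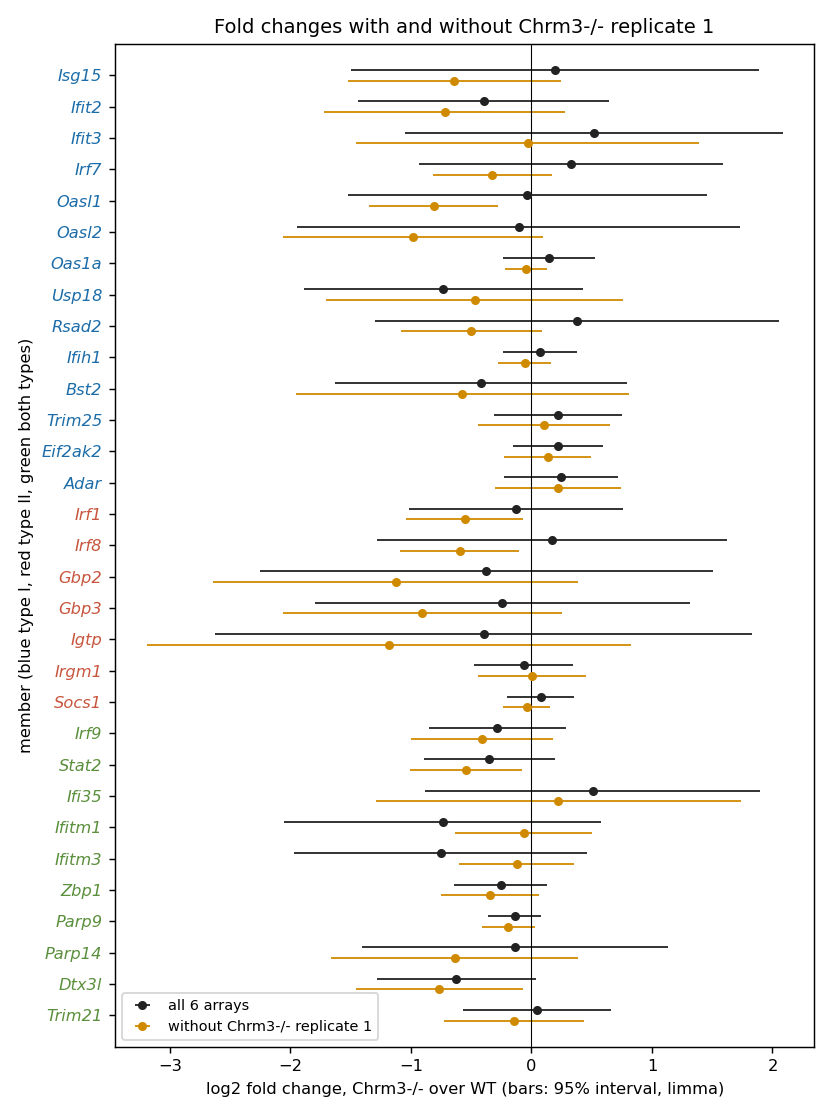
Log2 fold change (*Chrm3*-/- over WT) of each tested member with its 95% interval from limma, with all 6 arrays (black) and without *Chrm3*-/- replicate 1 (orange). With all arrays every interval covers 0, and without replicate 1 the points of 26 of 31 members lie below 0.

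Without *Chrm3*-/- replicate 1, 26 of the 31 members had a log2 fold change below 0, against 47.3% of all probes, and the median was -0.41, against 0.01. Over all 59 tested probes of the members, 45 lay below 0 without that array and the median was -0.20. In limma, 0 members passed an adjusted p of 0.05, against 0.137% of all probes, and the smallest adjusted p was 0.489. At an unadjusted p under 0.05, 5 members were lower in *Chrm3*-/- tumors, *Oasl1*, *Irf1*, *Irf8*, *Stat2* and *Dtx3l*, and 0 were higher, against 3.75% of all probes lower at this threshold and 7.45% in either direction. Leaving out WT replicate 1 in place of it gave a median of 0.12, with 21 members above 0 and 10 below. When both first replicates were left out, a choice made after the values were seen, the median was -0.22 over the members, -0.09 over the type I, -0.43 over the type II and -0.22 over the members of both types, with 22 of 31 below 0, and 0 members passed an adjusted p of 0.05.

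The median type II member moved further from array to array than the median type I member, a description with no test. Relative to the mean of the 6 arrays, the median type II member was at 1.20 on the log2 scale in *Chrm3*-/- replicate 1, -0.89 in replicate 2 and -0.29 in replicate 3, and at 0.32, -0.13 and 0.00 in the WT replicates. The median type I member was at 0.45, -0.44 and -0.31 in the *Chrm3*-/- tumors and at 0.02, -0.20 and -0.18 in the WT tumors. The median member of both types was highest in WT replicate 1, at 0.50, and stood at 0.08 in *Chrm3*-/- replicate 1. Over all probes tested, the medians lay between -0.05 and 0.02 on the 6 arrays.

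**Figure D4:**
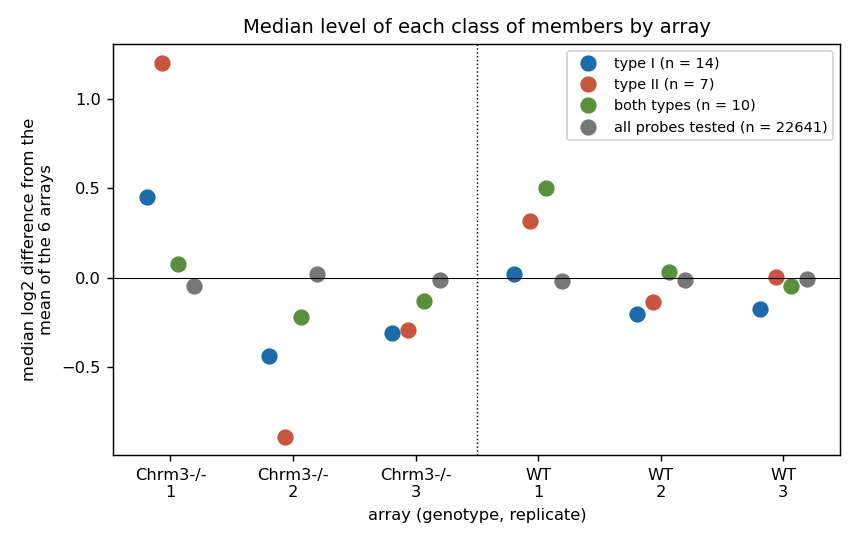
Median over the members of each class of log2(intensity + 50) minus the mean of the 6 arrays, for each array (*Chrm3*-/- left, WT right), with all tested probes in gray. The type II members spanned 1.20 to -0.89 among the *Chrm3*-/- tumors, and the members of both types were highest in WT replicate 1.

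Other genes of the pathway were taken from lists of ligands, receptors and kinases, sensors, negative regulators and further responsive genes, and 0 of the tested genes in any of these lists passed an adjusted p of 0.05 in limma. The ligands were dim: *Ifnb1* and *Ifna4* were under 2 on all arrays and the brightest probe of *Ifng* reached 4.47 at most. *Ifna1*, the only ligand tested, had 7.74, 16.2 and 2.62 in *Chrm3*-/- and 1.73, 3.17 and 11.3 in WT tumors (log2 fold change 0.08, SE 0.12, and 0.09, SE 0.13, without *Chrm3*-/- replicate 1). Of the receptors and kinases, 7 of 10 genes were tested, with a median log2 fold change of 0.13 (6 above 0 and 1 below), which was -0.04 without *Chrm3*-/- replicate 1 (2 above 0 and 5 below). *Ifngr1*, the ligand-binding chain of the interferon gamma receptor, had 963, 294 and 384 in *Chrm3*-/- and 416, 395 and 651 in WT tumors, whereas *Ifngr2*, its signaling partner, had 373, 589 and 667 in *Chrm3*-/- and 649, 836 and 598 in WT tumors, so *Chrm3*-/- replicate 1 was the highest array for the first and the lowest for the second. The sensors and inducers had a median of 0.19 over 9 tested genes of 13 (6 above 0 and 3 below), which was -0.09 without that array (3 above 0 and 6 below). *Tbk1*, the kinase that activates IRF3, had 1317, 1357 and 1178 in *Chrm3*-/- and 1137, 1061 and 863 in WT tumors, the only tested sensor or inducer without overlap of the genotypes, against 5.2% of all probes above and 5.5% below without overlap (log2 fold change 0.32, SE 0.16, adjusted p = 0.991, and 0.31, SE 0.17, without *Chrm3*-/- replicate 1). The 7 negative regulators had a median of -0.02 with all arrays and -0.08 without *Chrm3*-/- replicate 1, and *Socs3*, a feedback inhibitor induced mainly through STAT3, had 413, 691 and 877 in *Chrm3*-/- and 1333, 768 and 963 in WT tumors.

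The further responsive genes, which the choice of members did not include, were also uneven among arrays. Over 12 tested genes of 22 in the type I list, the median log2 fold change was -0.05 with all arrays and -0.44 without *Chrm3*-/- replicate 1, with 11 of the 12 below 0. *Ifi27l2a* had 2892, 210.3 and 476 in *Chrm3*-/- and 626, 833 and 625 in WT tumors, and *Samd9l* had 2468, 333 and 989.8 in *Chrm3*-/- and 1363, 1041 and 1503 in WT tumors. Over 17 tested genes of 20 in the type II list, the medians were -0.05 and -0.49, with 14 of the 17 below 0 without that array. *Psmb9*, an immunoproteasome subunit, had 1441, 108 and 269.5 in *Chrm3*-/- and 1074, 246 and 397 in WT tumors. *Cxcl9*, a chemokine that draws T cells and depends on interferon gamma, had 395, 31.0 and 65.8 in *Chrm3*-/- and 1347, 72.8 and 33.3 in WT tumors, highest in WT replicate 1. *Wars*, a tryptophan-tRNA ligase and the type II gene with the smallest p of this list, had 493, 366 and 525 in *Chrm3*-/- and 518, 626 and 559 in WT tumors (log2 fold change -0.28, SE 0.19, adjusted p = 0.991, and -0.33, SE 0.20, without *Chrm3*-/- replicate 1). *Ifi27l2a*, *Psmb9*, *Cxcl9* and, among receptors and markers, *Ifngr1*, *Ifng*, *Krt8*, *Epcam*, *Axin2* and *Cd3d* were picked after their values were seen.

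Markers of immune cells also differed among the arrays, and whether they varied with the members was not tested. In whole tumor tissue, fewer cells of a type and less RNA per cell cannot be told apart. T and NK cell markers (12 of 14 with a probe, 9 tested) summed to 1873 to 5350 over *Chrm3*-/- tumors, highest in replicate 1, and to 2414 to 3395 over WT tumors, highest in replicate 1. *Cd3d*, a chain of the T cell receptor complex, had 1255, 15.5 and 125 in *Chrm3*-/- and 185, 63.8 and 70.7 in WT tumors, so the first replicate of each genotype was the highest, as in *Isg15* and *Gbp3*. *Cd8a*, *Gzmb* and *Ncr1* were under 2 on every array. Dendritic cell markers (10 of 10 with a probe, 4 tested), which include the member *Bst2*, summed to 127 to 552 over *Chrm3*-/- tumors and to 159 to 534 over WT tumors, with *Xcr1* under 2 on every array. Most of the sum in WT replicate 1 was *Bst2* itself: without it, the other 3 tested markers summed to 397, 46.3 and 48.6 in *Chrm3*-/- tumors and to 71.5, 73.0 and 68.8 in WT tumors, so the first replicate was highest among the *Chrm3*-/- tumors but not among the WT tumors. Macrophage and monocyte markers (12 of 14 with a probe, 10 tested, none under 2 on every array) summed to 4667 to 12919 over *Chrm3*-/- and to 6547 to 9707 over WT tumors. Both first replicates were the highest of their genotype in 6 of the 9 T and NK cell markers tested. The same held in 3 of the 4 dendritic cell markers and 2 of the 10 macrophage markers, against 10.1% of all probes. The 3 dendritic cell markers include *Bst2*, which is itself a member.

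Other markers moved with *Chrm3*-/- replicate 1 but not with WT replicate 1. Smooth muscle markers (8 of 8 with a probe) summed to 9562 to 36935 over *Chrm3*-/- tumors and to 7707 to 12443 over WT tumors, where replicate 1 was the lowest, and absorptive colonocyte markers (8 of 9 with a probe) summed to 5769 to 51320 over *Chrm3*-/- and to 6598 to 15561 over WT tumors, again lowest in WT replicate 1. B and plasma cell markers (6 of 10 with a probe) summed to 111 to 5259 over *Chrm3*-/- and to 301 to 1566 over WT tumors, also lowest in WT replicate 1. In none of these 3 lists was a marker under 2 on all arrays. Neutrophil markers (8 of 9 with a probe, *Ngp* under 2 on every array) went the other way, with sums of 45.5 to 1346 over *Chrm3*-/- tumors, lowest in replicate 1, and of 744 to 4139 over WT tumors, highest in replicate 1. Fibroblast markers (8 of 8 with a probe, none under 2 on every array) were the only marker list whose sums did not overlap between the genotypes, with 8969 to 9646 over *Chrm3*-/- tumors and 12269 to 15837 over WT tumors, and all 8 log2 fold changes were below 0. At an unadjusted p under 0.05, 5 of the 8 were lower in *Chrm3*-/- tumors, against 2.81% of all probes, and 5 of the 8 lay below the WT tumors without overlap, against 5.5%. Of the 8, 0 passed an adjusted p of 0.05, against 0.0751% of all probes lower at that threshold. The part of any of these cell types in the interferon response values was not tested.

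**Figure D5:**
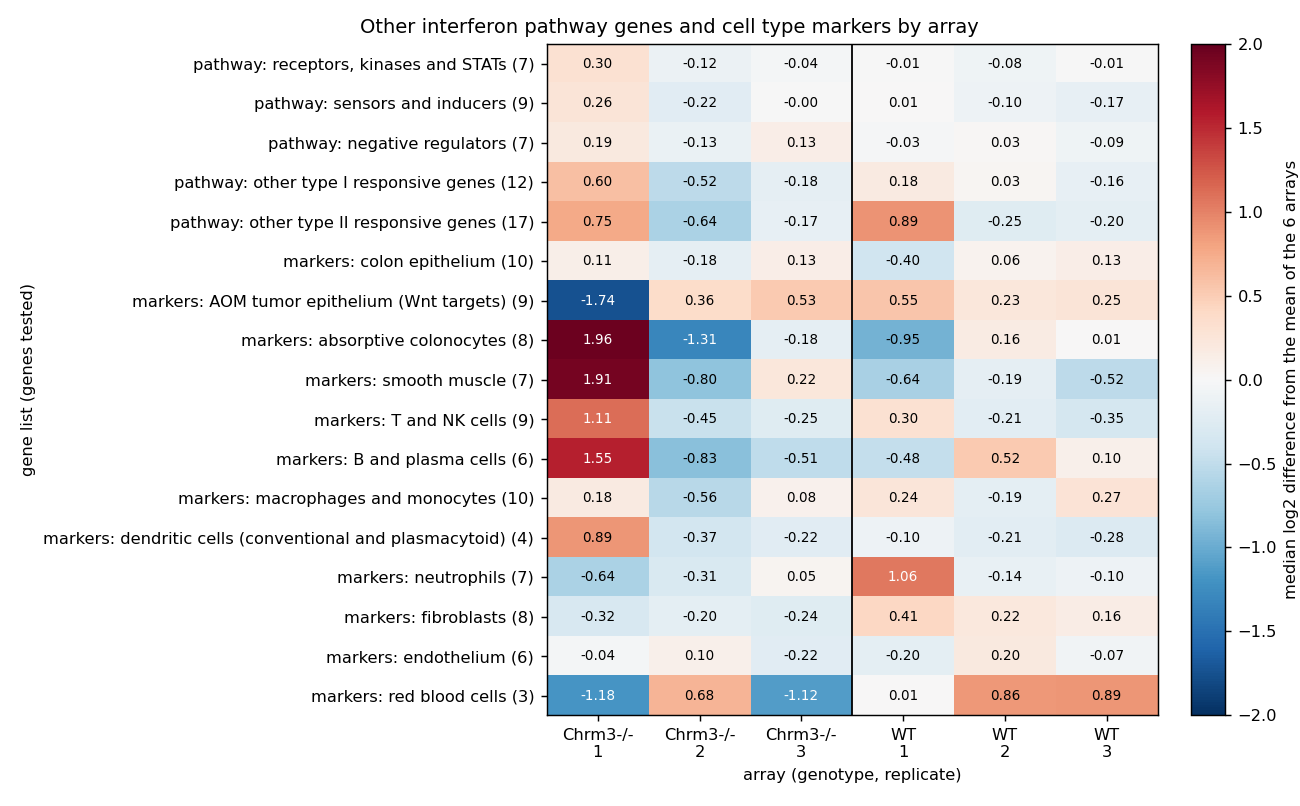
Median over the tested genes of each list of log2(intensity + 50) minus the mean of the 6 arrays (*Chrm3*-/- left, WT right), with the number of genes in brackets. The other type II responsive genes were at 0.75 in *Chrm3*-/- replicate 1 and at 0.89 in WT replicate 1, and the T and NK cell markers at 1.11 and 0.30, while the Wnt targets were at -1.74 in *Chrm3*-/- replicate 1.

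Members with and without a promoter match were found among those highest in the same array. *Isg15*, with 3 ISRE matches, and *Irf8*, with 2 GAS matches and no ISRE match, were both highest in *Chrm3*-/- replicate 1, and so were *Irf7* and *Oasl1*, which had a match to neither core in their windows. Of the 3 members with matches to both cores, *Bst2* and *Igtp* were highest in WT replicate 1 and *Oas1a* in *Chrm3*-/- replicate 1. *Ifitm1* and *Ifitm3*, lowest in *Chrm3*-/- replicate 1, had a match to neither core. This describes those of the 30 members with a window that also had a tested probe, which leaves out *Ifi44*, *Ifit1* and *Xaf1*, and it was not tested.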

How the data were processed

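Tumor RNA of 3 *Chrm3*-/- and 3 WT mice was measured on Illumina BeadChips, and the samples were grouped by their titles. Before deposit, the authors applied a cubic spline normalization with no subtraction of background, and the deposited intensity values are linear. All 6 columns hold the same set of values in different order, and 46.1% of the probes in each lie under 2, where values reflect rank only. A table of 6 columns of signals before normalization was not used, because their names match no sample.

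Intensities were analyzed as log2(value + 50) in limma 3.58.1 (R 4.3.3), using lmFit and trended eBayes with a genotype term alone, over the 22641 of 45281 probes whose mean was at or above the median (4 residual and 2.87 prior degrees of freedom). Two-sided p-values received the Benjamini-Hochberg adjustment over all probes tested, with a threshold of 0.05. The limma step was tested on simulated data. The number of arrays limits the precision, with a median SE of 0.19 on the log2 scale. Each array is from a different mouse per the methods. Probes were named from the platform annotation (34885 with 1 symbol, 18 with several, 10378 not listed). All 35 members are named, each by its tested probe with the highest mean, and from other lists up to 4 genes with the smallest p. The members, lists, offset and classes were chosen with earlier results of these data known. Promoters came from RefSeq. Alternatives covered the offset, filter, replicate block, trend, array weights, the methods' t-test, the choice of probe, centring, each array left out and the class division. Summaries used pandas 2.3.3 under Python 3.11.15, and matplotlib 3.10.9 drew the plots.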

Additional observations from a re-analysis of the deposited data

How the results depend on the processing

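Across 582 fits of a member under an alternative setting, 521 kept the direction of the log2 fold change and 61 turned it. The replicate block, eBayes without a trend, the methods' t-test and the filter settings leave a probe's log2 fold change unchanged. Their fits could not turn, so the total does not measure stability. Without *Chrm3*-/- replicate 1, 21 members kept the direction and 10 turned, and with array weights 23 kept it and 8 turned. In any setting, 0 members passed an adjusted p of 0.05. The number of all probes called, 28 with all arrays, was 45 with plain log2 values floored at 2, 12 with no filter on dim probes, 252 with array weights, 9 with the methods' t-test and 1 without both first replicates, and 4 to 31 when 1 array was left out (31 without *Chrm3*-/- replicate 1, 4 without *Chrm3*-/- replicate 3 or WT replicate 3, 5 without WT replicate 2 and 6 without WT replicate 1). With the replicate number as a block it was 1, with 0 members. Across all tested probes, deviations of same-numbered tumors correlated at -0.153, -0.0265 and 0.0193. Those of differently numbered tumors correlated at -0.145 to 0.149. Values of this size from so few tumors cannot decide whether the numbers pair the samples. The median of the type I members was -0.20 with array weights and -0.40 to 0.34 when 1 array was left out. The median of the members of both types was -0.67 with plain log2 values. The cause of these shifts was not tested.

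Members whose fold change turned had, with an offset of 100, 0.016 for *Oasl1*. With array weights they had -0.38 for *Isg15*, -0.095 for *Irf7*, -0.029 for *Oas1a*, -0.31 for *Rsad2*, -0.046 for *Ifih1*, -0.34 for *Irf8*, 0.0060 for *Irgm1* and -0.019 for *Socs1*. With probes averaged they had 0.038 for *Oasl1*, 0.079 for *Irf1* and -0.018 for *Trim21*, and with the probe of smallest p they had 0.088 for *Oasl1*, 0.22 for *Irf1*, 0.22 for *Irgm1* and -0.14 for *Trim21*. Leaving out both first replicates, an alternative added after the values were seen, turned 12 members. Over the fits without 1 array and without both first replicates, the log2 fold change was -0.64 to 0.68 for *Isg15*, -0.031 to 1.15 for *Ifit3*, -0.32 to 0.74 for *Irf7*, -0.068 to 0.24 for *Oas1a*, -0.50 to 0.85 for *Rsad2*, -0.059 to 0.13 for *Ifih1*, -0.64 to 0.66 for *Irf8*, -0.23 to 0.078 for *Irgm1*, -0.056 to 0.14 for *Socs1*, -0.15 to 0.26 for *Trim21*, -0.82 to 0.40 for *Oasl1*, -0.98 to 0.56 for *Oasl2*, -0.56 to 0.19 for *Irf1*, -1.13 to 0.43 for *Gbp2*, -0.91 to 0.29 for *Gbp3*, -1.18 to 0.52 for *Igtp*, -0.64 to 0.41 for *Parp14*, -0.77 to 0.19 for *Bst2*, -0.85 to 0.019 for *Ifit2*, -0.086 to 1.08 for *Ifi35*, -1.26 to 0.036 for *Ifitm1* and -1.12 to 0.046 for *Ifitm3*.

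The limits are those of 3 tumors a genotype. Values under 2 carry only rank, so *Ifit1* and *Xaf1* could not be compared, *Iigp1* was too dim on average to be tested, and dim members such as *Oas1a*, *Ifih1*, *Socs1* and *Parp9* have fold changes shrunk by the offset. Probe specificity among the paralogs of the guanylate-binding, oligoadenylate synthetase, IFIT and IFITM families was not checked. Of the 17 members with several tested probes, 10 had probes on both sides of 0.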
